A study of Rattus norvegicus with 18 samples.

Results

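Small RNA of the developing cortex of Sprague Dawley rats was sequenced at 8 stages, and the reads described here are 5' isomiRs, that is, reads of a miRNA whose first base lies 1 to 3 nt inside or before the annotated 5' end. A unique sequence read, or tag, was a member when it was identical to a mature sequence over their common length, held 18 nt or more, began at one of these shifted positions, and was present in both sequencing runs of a tissue sample. Mature sequences of 44 miRNAs came from the primers and figures of the study: 32 known miRNAs and 12 candidate miRNAs that the study proposed. Over all tissue samples 1240 shifted tags of 38 miRNAs were found, beside 1080 tags of these miRNAs with the mature 5' end and among 14865 tags that were counted for any of 793 miRNAs and candidates. In a single tissue sample there were between 349 shifted tags, at P14, and 551, at E10, where the files held 31952 and 72056 unique tags in both runs. A shift is written below as +1, +2 or +3 when the tag starts inside the mature sequence, and as -1, -2 or -3 when it starts before it. Of the 1240 tags 422 were at -1, 384 at +1, 181 at +2, 115 at -2, 71 at -3 and 67 at +3.

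The tissue samples carried no treatment or altered allele. Embryonic days 10 and 13 (E10, E13) are labelled forebrain, and E17 and postnatal days 0, 3, 7, 14 and 28 (P0 to P28) are labelled somatosensory cortex, so that stage and tissue cannot be told apart between the first 2 stages and the later ones. P0 had 2 tissue samples and every other stage 1, and each of the 9 tissue samples was sequenced in 2 runs, which are technical replicates. The 18 libraries held between 4899010 and 11043948 clean reads in run 1 and between 12769251 and 16590379 in run 2. Neural rno-miR-124 was present at every stage, at 16407 to 130142 RPM (reads scaled to the clean reads of the tissue sample), whereas rno-miR-451-5p, a miRNA of red blood cells, was at 1150 RPM at E10 and at 27.4 to 88.7 RPM later. Of the mesenchymal miRNAs, rno-miR-199a-3p was at 27357 and 38385 RPM at E10 and E13 and at 173 to 1815 RPM later. At E10 and E13 rno-miR-124 was at 21611 and 16407 RPM. rno-miR-214-3p was at 51.4 and 134 RPM at these stages and at most 0.921 RPM later. rno-miR-145-5p was at 144 RPM at E10 and at 2.09 to 32.6 RPM later, whereas rno-miR-143-3p was highest at P28, at 1611 RPM. In such bulk tissue fewer cells of a type and less RNA per cell cannot be told apart. A value at a stage other than P0 has no biological replicate, and errors given over the 9 tissue samples hold both developmental and technical spread.

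A mature miRNA is cut from a hairpin precursor by Drosha in the nucleus and Dicer in the cytoplasm, and one strand is loaded into an Argonaute protein. Argonaute anchors the first base in a pocket and presents the next bases, the seed, for pairing with target mRNAs. A miRNA whose 5' end moves by a single base therefore shows another seed, whereas a change at the 3' end leaves the seed as it was. On the 5p arm of the hairpin the 5' end is made by Drosha, and on the 3p arm by Dicer.

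The sequences below are a selection of the members on which the results turn: miRNAs with large shifted shares, those with a slope past the threshold, and examples of a shifted seed that equals the seed of another miRNA. Each pair or triplet gives the mature sequence and the most abundant tag of a shift, 5' to 3' as DNA letters of the tags, with the seed (bases 2 to 8 of that molecule) in capitals.
rno-miR-135a*, mature: tGTAGGGAtggaagccatgaaa
rno-miR-135a*, -1: aTGTAGGGatggaagccatgaa
rno-miR-135b-3p, mature: aTGTAGGGctaaaagccatggg
rno-miR-137, mature: tTATTGCTtaagaatacgcgtag
rno-miR-137, +1: tATTGCTTaagaatacgcgta
rno-miR-137, +2: aTTGCTTAagaatacgcgta
rno-miR-199a-3p, -1: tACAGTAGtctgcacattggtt
rno-miR-199a-3p, mature: aCAGTAGTctgcacattggtta
rno-miR-199a-3p, +1: cAGTAGTCtgcacattggtta
rno-miR-221, mature: aGCTACATtgtctgctgggtttc
rno-miR-221, +1: gCTACATTgtctgctgggttt
rno-miR-29a, -1: cTAGCACCatctgaaatcggtta
rno-miR-29a, mature: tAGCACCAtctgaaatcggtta
rno-miR-29a, +1: aGCACCATctgaaatcggtta
rno-miR-672, mature: tGAGGTTGgtgtactgtgtgtga
rno-miR-672, +1: gAGGTTGGtgtactgtgtgtg
rno-miR-298, mature: gGCAGAGGagggctgttcttccc
rno-miR-298, +2: cAGAGGAGggctgttcttc
rno-miR-296, mature: gAGGGTTGggtggaggctctcc
rno-miR-296, +1: aGGGTTGGgtggaggctctcc
rno-miR-124, -1: tTAAGGCAcgcggtgaatg
rno-miR-124, mature: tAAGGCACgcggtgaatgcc
rno-miR-124, +1: aAGGCACGcggtgaatgccaa
Candidate 11, mature: cTAAGGCAggcagacttcagtg
rno-miR-128, -1: cTCACAGTgaaccggtctcttt
rno-miR-128, mature: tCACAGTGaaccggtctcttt
rno-miR-128, +2: aCAGTGAAccggtctcttt
rno-miR-27b-3p, mature: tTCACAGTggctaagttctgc

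Where RefSeq places these miRNAs on the rat genome (build GRCr8), rno-miR-135a* is the 3p product at chr7:28499183-28499204 on the minus strand and rno-miR-137 lies at chr2:209165767-209165789 on the plus strand. rno-miR-199a-3p, at chr13:77116294-77116315 on the plus strand, falls within the span of Dnm3. rno-miR-221, at chrX:6023246-6023268, and rno-miR-222, at chrX:6022682-6022702, lie side by side on the plus strand. rno-miR-672, at chrX:73192351-73192373 on the minus strand, falls within the span of Nexmif, and rno-miR-298, at chr3:183470571-183470593 on the minus strand, lies close to rno-miR-296 at chr3:183470079-183470100. rno-miR-128 has a locus within the span of R3hdm1, at chr13:42251933-42251953 on the plus strand, and a further one within that of Arpp21, at chr8:120963807-120963827 on the minus strand, which give the same mature sequence.

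Several libraries stood apart before any stage was compared. In run 1 the libraries of E10, P0 replicate 2 and P3 differed from the other 6. Their share of rno-miR-128 reads at +2 was 1.77 to 2.65%, against 0.127 to 0.230% in the other 6, and their share of rno-miR-93 at +1 was 2.65 to 3.18%, against 0.492 to 0.956%. The run 2 libraries of all tissue samples held 0.404 to 1.48% and 1.41 to 2.68% for these same classes. The run 2 library of E10 differed from all other libraries at the 3' end. Among reads with the mature 5' end, the share that reached base 21 of the mature sequence had a median over miRNAs of 99.4% in this library, against 56.3 to 68.5% in the other run 2 libraries. In run 1 it was 56.7 to 58.7% in the 3 libraries named above and 26.2 to 48.7% in the other 6, so that these 3 stood apart at the 3' end too. The 3' end bears on the shares of shifted tags, because a tag that starts 1 nt inside and stops at base 18 has only 17 nt and is not counted. Slopes past the threshold, the trend over the miRNAs and the mean shares of the largest classes concerned are given with and without these libraries.

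Shares are the reads of a shift divided by all reads of the same miRNA, with both runs summed. They were compared for the 33 miRNAs with at least 100 reads in every tissue sample, 31 of them known miRNAs and the others Candidate 11 and Candidate 55. The remaining miRNAs were rno-miR-344b-5p, with 70 reads in its lowest tissue sample, and 10 candidates, of which Candidate 2 and Candidate 3 had 0 counted reads in all tissue samples. The sequence that the rno-miR-99b primers give differs at 4 bases from that of rno-miR-99b-5p in RefSeq and is named here by its primers.

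For most miRNAs few reads were shifted. The share of shifted reads, averaged over the 9 tissue samples, had a median of 1.76% over the 33 miRNAs and ranged from 0.150% for rno-miR-219-2-3p to 29.2% for rno-miR-135a*. It was 5% or more for 6 miRNAs and under 1% for 8. Reads that began inside the mature sequence outnumbered those that began before it for 26 of the 33 miRNAs. The most common shift was +1 for 23 miRNAs, -1 for 7, +2 for rno-miR-298 and rno-miR-128, and +3 for rno-miR-376b. The median share was 1.01% at +1 and 0.117% at -1, and shifts of 2 or 3 nt reached a mean of 1% only at +2 for rno-miR-137 and at +3 for rno-miR-376b. The 200 other miRNAs and candidates with as many reads had a median shifted share of 3.11%, and 26.5% of them reached 10%, against 9.09% of the 33. Shares of these others ran from 0 to 100%, and whether the annotated 5' end of each is the one in these tissues was not tested.

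Among the 33 miRNAs the largest shifted class was rno-miR-135a* at -1. This star strand is the 3p product of the miR-135a hairpin. The -1 reads made up 50.2% of its reads at E10, 19.5% at E13, 18.6% at E17, 16.0% and 27.3% in the 2 P0 tissue samples, 44.5% at P3, 32.6% at P7, 27.9% at P14 and 24.3% at P28. The mean was 29.0% ± 11.7 (SD, n = 9), and E10 and P3 stood highest. Without the 3 run 1 libraries that stood apart, the mean was 25.7%. Much of this spread lay between runs. In run 1 the share was 54.3% at E10, 57.3% at P0 replicate 2 and 72.4% at P3 but 10.9 to 25.3% in the other 6 libraries, whereas in run 2 it was 46.3%, 15.6% and 30.7% in these 3 tissue samples and 21.7 to 40.2% in the others. At P0 replicate 2 the 95% Wilson intervals of the runs, 51.0 to 63.4% for 239 reads and 13.0 to 18.7% for 615 reads, did not overlap. The extra 5' base was the one that the RefSeq hairpin holds there in 99.8% of the 23461 reads at -1. As the printed sequences show, the -1 form carries the seed TGTAGGG of rno-miR-135b-3p, the corresponding strand of the paralogous miR-135b.

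rno-miR-137, a neuronal miRNA, had the broadest spread towards the inside. Its +1 share was 7.08% at E10, 10.95% at E13, 18.8% at E17, 24.0% and 22.5% in the P0 tissue samples, 21.8% at P3, 16.8% at P7, 17.1% at P14 and 18.1% at P28. E10 and E13 were the lowest in both runs, at 6.76% and 11.6% in run 1, where the other libraries held 17.5 to 26.9%, and at 7.42% and 9.89% in run 2, where they held 14.6 to 20.97%. The 95% Wilson interval was 5.63 to 8.88% at E10 (960 reads of this miRNA) and 17.2 to 20.6% at E17 (2060 reads). The +2 share was 2.08% at E10, 3.44% at E13, 6.21% at E17, 6.54% and 6.18% at P0, 6.97% at P3, 3.36% at P7, 2.80% at P14 and 4.28% at P28. The slope of the +1 share on the stage order was 0.12 per stage on the log2 scale (SE 0.080, adjusted p = 0.634, edgeR), so a steady trend was not shown. The low values at E10 and E13 coincide with the forebrain label.

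rno-miR-199a-3p, a miRNA of mesenchymal and vascular cells, was shifted in both directions at once. Its -1 share lay between 6.24% (P0 replicate 1) and 11.01% (E10), with a mean of 8.62% ± 1.52 (SD, n = 9), and its +1 share between 3.39% (P0 replicate 2) and 9.15% (E13), with a mean of 6.23% ± 1.76. The -1 share was similar in both runs, with medians of 7.34% and 9.05%. The +1 share was not. In run 1 it was 2.99 to 6.15% in the 3 libraries that stood apart and 9.32 to 14.2% in the other 6, while all 9 run 2 libraries held between 3.96% and 5.45%. Without the 3 libraries the mean at +1 was 6.26%. The level of this miRNA differed widely, from 27357 and 38385 RPM at E10 and E13 to between 173 and 1815 at the later stages, whereas its shifted share stayed between 12.9 and 17.9% throughout. The slope of the -1 share was -0.06 per stage (SE 0.035, adjusted p = 0.591, edgeR).

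rno-miR-221 and rno-miR-222 are made from neighbouring hairpins and share the mature seed GCTACAT, but they differed in how often they started 1 base inside. The +1 share of rno-miR-221 was 5.51% at E10, 9.26% at E13, 6.78% at E17, 3.18% and 7.29% at P0, 7.52% at P3, 6.93% at P7, 7.71% at P14 and 6.69% at P28. That of rno-miR-222 was 2.12%, 1.53%, 0.848%, 0.807%, 1.23%, 1.51%, 1.16%, 1.38% and 1.13% in the same order. rno-miR-221 was higher in each of the 9 tissue samples, with means of 6.76% ± 1.68 and 1.30% ± 0.40 (SD, n = 9). The value of rno-miR-221 was also bound to the run, with a median of 14.3% in run 1 and 4.96% in run 2 and the higher share in run 1 in 9 of 9 tissue samples, and its mean was 5.89% without the 3 run 1 libraries that stood apart. At +1 their seeds become CTACATT and CTACATC and are no longer identical.

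The miR-29 family, which rises with cortical maturation and shares the seed AGCACCA, showed a like difference at -1. The -1 share of rno-miR-29a was steady, from 1.74% at E10 to 2.31% at E17, P0 replicate 1 and P3, with a mean of 2.09% ± 0.233 (SD, n = 9), and 99.04% of these reads carried the hairpin's C. For rno-miR-29c the -1 share was at most 0.248%, at P28, and only 53.1% of 113 reads carried the hairpin base. rno-miR-29b had 2.83% ± 2.51 at -1, but 0 reads at -1 in E10, E17 and P0 replicate 2. With 430, 149 and 122 reads of rno-miR-29b in these tissue samples, a count of 0 allows a share of up to 0.698%, 2.01% and 2.46%. The +1 shares were 2.48% ± 0.416, 1.44% ± 0.952 and 1.53% ± 0.396 for rno-miR-29a, rno-miR-29b and rno-miR-29c. Of the +1 reads of rno-miR-29b 84.7% were 19 nt long, and with tags of 20 nt or longer its mean was 0.0123%.

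The other families were compared in the same way. Of the pair with the seed AAAGTGC, from the miR-17-92 cluster and its paralogue, which act in proliferating progenitors, rno-miR-17-5p had a +1 share of 3.31% ± 1.19 and rno-miR-93 of 1.89% ± 0.368 (SD, n = 9). With the seed ATTGCAC, rno-miR-92a had 2.39% ± 0.535 at +1 and 0.115% at -1, whereas rno-miR-92b had 0.987% ± 0.213 and 0.775% ± 0.295. The order at +1 depended on the length of the tags, since 75.2% of the +1 reads of rno-miR-92a were 19 nt long. With tags of 20 nt or longer the +1 means were 0.151% for rno-miR-92a and 0.581% for rno-miR-92b, and with tags reaching base 21 they were 1.24% and 1.02%. rno-miR-130b had 1.77% ± 1.66 at +1 and rno-miR-130a 0.778% ± 0.439. With tags of 20 nt or longer these means were 4.43% and 1.38%. The values of rno-miR-130b ranged from 4.36% at E10 and 4.50% at P3 to 0% at P14 and P28, where the miRNA was sparse.

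rno-miR-124, the most neuron-restricted miRNA of the brain, had shares that were small but rested on 326670 to 2833884 reads per tissue sample. Its -1 share was 3.02% at E10, 3.09% at E13, 1.99% at E17, 2.21% and 1.74% at P0, 2.08% at P3, 2.36% at P7, 2.92% at P14 and 3.00% at P28, with a mean of 2.49% ± 0.521 (SD, n = 9). In run 1 of P0 replicate 2 and P3, libraries that stood apart, it was only 0.366% and 0.504%, against 2.62% and 3.38% in run 2. The +1 share was 1.10 to 2.05% in 8 tissue samples and 4.88% in P0 replicate 1, where run 2 held 5.63% and run 1 held 0.916%. Among tags reaching base 21 it was 2.20 to 4.10% in these 8 tissue samples and 7.19% in P0 replicate 1, with a mean of 3.56% against 1.97% over all tags. The level of rno-miR-124 was 130142 RPM in this tissue sample and 42993 in P0 replicate 2, and the part of the library in this value was not tested. The slope at +1 was -0.17 per stage (SE 0.10, adjusted p = 0.602, edgeR). At -1 the seed becomes TAAGGCA, which is also the mature seed of Candidate 11. Candidate 11 itself had a +1 share of 0.879% ± 0.196 and 0.043% at -1, and Candidate 55, which is rno-miR-3099 in RefSeq by sequence, had a mean of 1.0% ± 0.818 (SD, n = 9) at +1.

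rno-miR-128, which becomes one of the most abundant cortical miRNAs after birth, had 15850577 reads in all. Its most common shift was +2, at 1.77% at E10, 0.617% at E13, 0.434% at E17, 0.332% and 1.47% at P0, 1.57% at P3, 0.401% at P7, 1.02% at P14 and 0.388% at P28. The 3 tissue samples with the highest shares were those whose run 1 libraries stood apart, and the mean was 0.888% with and 0.713% without these libraries. Of the +2 reads 47.7% were 19 nt long, and with tags of 20 nt or longer the mean was 0.390%. Its -1 share was only 0.132% ± 0.0486 (SD, n = 9), and that form carries the seed TCACAGT of rno-miR-27a-3p and rno-miR-27b-3p. Because rno-miR-128 is so abundant, this share was 21335 reads, beside 7338 and 16495 reads of rno-miR-27a-3p and rno-miR-27b-3p with the mature 5' end over the same libraries. The counts of rno-miR-27a-3p and rno-miR-27b-3p are lower limits. Their mature-start tags of the minimum length are identical, fit both miRNAs and were left out, whereas rno-miR-128 tags of that length were kept.

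Of the remaining miRNAs with large shares, rno-miR-378 was the steadiest, with 3.52 to 4.92% at +1 and a mean of 4.31% ± 0.479 (SD, n = 9). rno-miR-134, which acts at dendritic spines, had 2.43% ± 0.983 at -1, with 0.326% in P0 replicate 1 and 1.996 to 3.63% in the other 8 tissue samples, and 99.6% of these reads carried the hairpin's G. The smallest shifted shares were those of rno-miR-219-2-3p, an oligodendrocyte miRNA, at 0.150% ± 0.182, rno-miR-3559-5p at 0.186% ± 0.196 and rno-miR-296 at 0.306% ± 0.259. The low share of rno-miR-296 is bound to tag length. Of its mature-start reads 97.6% were 18 nt long, and their +1 counterparts were too short to be counted. Among its few tags that reached base 21, the +1 share ran from 12.8% at E10 to 66.7% at P14, and P28 had no such tags.

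Whether a shifted share changed over development was tested by regressing it on the order of the stages, from 1 at E10 to 8 at P28, with the quasi-likelihood test of edgeR. The counts of each shift were fitted with all reads of the same miRNA as offset, so that the slope is that of the share and not of the level. Of 520 shifted classes of 215 miRNAs and candidates, 5 passed an adjusted p of 0.05 (0.962% of those tested), 1 rising and 4 falling. Of the 88 classes of the members, 4 passed, 1 rising and 3 falling. An unadjusted p under 0.05 was found for 12 of the 88 member classes and for 59 of all 520. The median slope was -0.03 per stage over the member classes and -0.04 over all classes. The 4 classes kept their direction in each run alone.

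The rising class was rno-miR-672 at +1. Its share was 1.89% at E10, 2.05% at E13, 2.81% at E17, 3.11% and 5.26% at P0, 6.66% at P3, 5.06% at P7, 7.62% at P14 and 8.50% at P28. The order of the values followed the stages except for P7. The slope was 0.33 per stage on the log2 scale (SE 0.055, adjusted p = 0.0218, edgeR). The 95% Wilson interval was 1.64 to 2.18% at E10 (184 of 9732 reads) and 7.55 to 9.56% at P28 (251 of 2953 reads). In run 2 the share went up at every step, with 1.63%, 2.50%, 3.23%, 3.91% and 3.95%, 5.61%, 5.89%, 8.73% and 9.53%. In run 1 it was 2.33%, 1.38%, 2.27%, 1.69% and 8.56%, 9.68%, 3.08%, 3.64% and 6.55%, and the slope of 0.23 did not pass (adjusted p = 0.827). Without the 3 run 1 libraries that stood apart, the slope was 0.35 (adjusted p = 0.00372), and without the run 2 library of E10 it was 0.31 (adjusted p = 0.0311). The tags of rno-miR-672 were long, with 92.1 to 98.5% of the mature-start reads reaching base 21, and among tags that reached base 21 the slope was 0.33 (adjusted p = 0.0578). With library sizes in place of its own reads as offset the +1 reads had a slope of -0.04 (adjusted p = 0.938). Leaving out any one of E10, E13, E17, P7, P14 or P28 raised its adjusted p above 0.05, to at most 0.192, with slopes of 0.31 to 0.36.

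rno-miR-298 and rno-miR-296, neighbours in the imprinted Gnas region, gave the falling classes. The +2 share of rno-miR-298 was 1.86% at E10, 1.26% at E13, 1.06% at E17, 0.734% and 0.659% at P0, 0.464% at P3, 0.613% at P7, 0.421% at P14 and 0.308% at P28. The 3 embryonic values were the highest, and the slope was -0.34 per stage (SE 0.046, adjusted p = 0.0110, edgeR). Its +3 share was 0.251% at E10, at most 0.0634% afterwards and 0 at P28, with a slope of -0.72 (SE 0.14, adjusted p = 0.0404, edgeR). At P28, with 9404 reads, a count of 0 allows a share of up to 0.0319%. The +1 share of rno-miR-296 was 0.817% at E10, 0.555% at E13, 0.363% at E17, 0.287% and 0.0988% at P0, 0.166% at P3, 0.121% at P7, 0.0642% at P14 and 0 of 314 reads at P28, with a slope of -0.60 (SE 0.10, adjusted p = 0.0218, edgeR). For rno-miR-296 at P28 a count of 0 allows up to 3 of 314 reads, a share above the one at E10, so this 0 by itself shows no fall.

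The length of the tags differed between the tissue samples as well. The share of mature-start reads of rno-miR-298 that reached base 21 was 81.9% at E10, 32.1% at E13, 31.0% at E17, 33.8% and 48.0% at P0, 47.1% at P3, 23.9% at P7, 19.7% at P14 and 15.0% at P28. E10 was the highest and P28 the lowest, as with the +2 share, and the part of tag length in the fall was not tested beyond the fit that follows. Among tags that reached base 21, where each shift could be counted at the same 3' ends, the slope of rno-miR-298 was -0.16 at +2 (adjusted p = 0.448) and -0.45 at +3 (adjusted p = 0.163), and neither passed. Between 93.8 and 99.7% of the mature-start reads of rno-miR-296 were 18 nt long, so that almost none of them had a +1 counterpart that could be counted. Its E10 share was 0.141% in run 1 and 10.3% in run 2, and without the run 2 library of E10 its slope was -0.41 (adjusted p = 0.391). Without that library rno-miR-298 had slopes of -0.42 at +2 (adjusted p = 0.0148) and -0.78 at +3 (adjusted p = 0.0311). Without the 3 run 1 libraries that stood apart, the slope of rno-miR-298 at +2 was -0.28 (adjusted p = 0.0583), and that of rno-miR-296 was -1.16 (adjusted p = 0.0145). Without the same libraries rno-miR-298 at +3 had a slope of -0.69 (adjusted p = 0.0234). By run, the slope of rno-miR-298 at +2 was -0.44 in run 1 (adjusted p = 0.0150) and -0.24 in run 2 (adjusted p = 0.0772). At +3 it was -0.80 in run 1 (adjusted p = 0.441) and -0.65 in run 2 (adjusted p = 0.0132), and that of rno-miR-296 was -0.47 in run 1 (adjusted p = 0.827) and -1.26 in run 2 (adjusted p = 0.0132). Of the tissue samples left out in turn, E10 and P28 each took rno-miR-298 at +2 above 0.05 (adjusted p = 0.168 and 0.0801). For rno-miR-296 every one but the P0 samples did so (adjusted p up to 0.192), and for rno-miR-298 at +3 every one but E13 did so (adjusted p up to 0.655). Across all 405 classes fitted among tags that reached base 21, edgeR called 0, and 45 had an unadjusted p under 0.05.

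Taken over the miRNAs, no trend of 5' shifting over development was detected. The median shifted share of the 33 miRNAs was 2.12% at E10, 1.73% at E13, 1.54% at E17, 1.30% and 2.06% at P0, 2.43% at P3, 1.34% at P7, 1.70% at P14 and 1.56% at P28. With the stage order it gave r = -0.28 (exact permutation p = 0.471, adjusted p = 0.706 over 3 measures) and rho = -0.27 (exact permutation p = 0.483, adjusted p = 0.769). Without the 2 tissue samples farthest from the median stage, r was 0.0076. Without the 3 run 1 libraries that stood apart r was -0.03 (exact permutation p adjusted 0.928), and without the run 2 library of E10 it was -0.43 (exact permutation p adjusted 0.371). Within run 1 the value was r = -0.48 (adjusted p = 0.288) and within run 2 r = -0.02 (adjusted p = 0.954), both by exact permutation tests. The medians of the shares inside and before the mature end gave r = -0.35 (exact permutation p = 0.353, adjusted p = 0.706) and r = 0.06 (exact permutation p = 0.894, adjusted p = 0.894). All tests were two-sided. When the shifted reads of all members were pooled instead, their share was 7.62% and 7.78% at E10 and E13 and 1.61 to 4.62% later (r = -0.79, exact permutation p adjusted 0.0157). By rank it was rho = -0.74 (exact permutation p adjusted 0.0391). The pooled share before the mature end had r = -0.80 and rho = -0.92 (exact permutation p adjusted 0.0080 and 0.0029), and that inside had r = -0.68 and rho = -0.56 (exact permutation p adjusted 0.0488 and 0.122). rno-miR-199a-3p, whose shifted share was high at every stage, made up 28.3% and 33.7% of the members' reads at E10 and E13 and at most 0.863% later. rno-miR-128, whose shifted share was low, made up 1.67% and 3.82% at E10 and E13 and 20.2 to 69.8% later. The part of these miRNAs in the pooled trend was not tested.

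No difference between the 2 runs in the median shifted share was shown beyond their spread. The median was 1.72% ± 0.648 in run 1 and 1.96% ± 0.303 in run 2 (SD, n = 9), and the difference of run 1 minus run 2 was -0.24 points (SD 0.665, exact sign-flip permutation p = 0.289, adjusted p = 0.363), where the smallest p that the design allows is 0.0039. Run 1 was higher in 3 of 9 tissue samples. Without E10, whose run 2 library stood apart, the difference was -0.41 points (SD 0.470, exact sign-flip permutation p = 0.0625, adjusted p = 0.0938). For single classes the runs often disagreed. Over the member classes seen in both runs of a tissue sample, the median size of the log2 ratio between runs was 0.43 at P3 and 1.25 at P0 replicate 1, the lowest and the highest. Between the 2 P0 tissue samples, with runs summed, it was 0.77 over 70 classes, of which 30 differed more than 2-fold, and 12 more were seen in one of the samples only. Within a single run it was 1.22 in run 1 and 0.51 in run 2. Since tags had to be present in both runs of a tissue sample, a class seen in one run only cannot occur, and the values between runs and between tissue samples are not alike in this.

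The 3' ends of shifted tags were compared with those of the unshifted tags of the same miRNA. At +1 the mean 3' end lay a median of 0.23 nt farther out than that of mature-start tags over 32 classes, farther out in 25 of them and farther in in 7 (range -0.48 to 4.27 nt), and the tag was a median of 0.684 nt shorter. At -1 it lay a median of 0.164 nt farther in over 29 classes, farther out in 12 and farther in in 17 (range -3.90 to 1.35 nt), and the tag was a median of 0.866 nt longer. The 3' end farthest out was that of rno-miR-296 at +1, and the one farthest in that of rno-miR-222 at -1, of which 84.1% of the reads were 18 nt long. The +1 tags of rno-miR-29a and rno-miR-672 ended within 0.012 nt of the mature-start tags on average. Those of rno-miR-124 ended 1.69 ± 0.61 nt farther out (SD, n = 9) and those of rno-miR-130b 2.35 ± 0.83 nt (SD, n = 6), miRNAs whose mature-start tags were 18 nt long in a median of 49.5% and 74.2% of reads. Of such miRNAs the short +1 tags fall under the minimum of 18 nt and were not counted.

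The bases before the mature 5' end could be compared with the hairpin for 23 classes at -1. The hairpin's base was present in a median of 76.7% of the -1 reads, above 90% in 8 classes and under 50% in 9. It was the rule in the classes with large -1 shares for which a hairpin was at hand, with 99.8% for rno-miR-135a*, 99.6% for rno-miR-134, 99.04% for rno-miR-29a and 96.7% for rno-miR-29b. For rno-miR-137, rno-miR-672 and rno-miR-92a, with mean -1 shares of 0.256%, 0.0776% and 0.115%, the hairpin base was found in only 6.94%, 0% and 22.4% of the reads. Of 32 classes at +1, the new first base was A in 16, G in 11, C in 3 and T in 2, where the mature first base was T in 15 and A in 10. The 2 with T were rno-miR-137, which has the largest +1 share and begins with T in both forms, and Candidate 11, whose mature first base is C.

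A shift gave a seed already used by another miRNA of the table in a few cases only. Besides the forms of rno-miR-135a*, rno-miR-124 and rno-miR-128 described above, the +1 forms of rno-miR-17-5p and rno-miR-93 carry the seed AAGTGCT of rno-miR-291a-3p and rno-miR-105, and the -1 forms of rno-miR-130a and rno-miR-130b carry the seed CAGTGCA of rno-miR-148a-3p, rno-miR-148b-3p and rno-miR-152-3p. The -1 shares of the last 2 miRNAs, rno-miR-130a and rno-miR-130b, were 0.147% and 0.0292%. At -1 rno-miR-138 carries the seed of rno-miR-133c, and at +3 rno-miR-376b that of rno-miR-877. A shared seed is a description of these letters and says nothing of the targets. By the arm of the hairpin, 10 members of the 5p arm had a median shifted share of 1.19% (0.186 to 5.04%) and 17 of the 3p arm one of 1.76% (0.150 to 29.2%). A hairpin was at hand for only 27 of the miRNAs compared. Left out were rno-miR-199a-3p, rno-miR-124, rno-miR-378, rno-miR-376b, rno-miR-99b and rno-miR-708, with 15.2%, 4.83%, 4.48%, 1.92%, 1.75% and 1.42%.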

How the data were processed

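Total RNA was extracted with TRIzol and a small RNA fraction sequenced on an Illumina instrument. The authors removed adaptors, low quality reads and contaminants and deposited, for each library, unique clean tags with their lengths and read counts, without normalization. Members, gene lists and the rule for miRNAs named singly were chosen with earlier results of these data known. That rule took the 12 largest and 3 smallest shifted shares, classes past the threshold in the same direction in both runs, rno-miR-124, rno-miR-128, Candidate 11, Candidate 55 and the families with a shared seed. Tags were matched without mismatch, with at most 3 bases past the mature 3' end; tags that fit several sequences (0.0042% of member reads) were left out. The whole table held 793 mature sequences (study and RefSeq, GRCr8). Slopes used edgeR 4.0.16 (R 4.3.3) on counts summed over runs, for classes with 10 reads or more in at least 2 tissue samples of miRNAs with 100 reads or more in each, with Benjamini-Hochberg adjustment over all classes. DESeq2 1.42.0 was an alternative, and other steps used Python 3.11.15, numpy 2.4.6, pandas 2.3.3 and scipy 1.17.1. The matching and the slope test were tested on simulated data. The simulated counts of the slope test varied less than the data, so they do not show how the test performs at the spread found here. Intervals are 95% Wilson intervals. A share of 0 allows up to 3 counts of the total. These limits describe counting error and nothing else, because PCR copies were not told apart, and p-values over tissue samples measure the spread between these samples.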

Additional observations from a re-analysis of the deposited data

Results flagged for a closer look

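Among the 31 named classes, the 4 libraries of P0 were searched for a library far from the other 3, which chance gives in about 1 of 20 groups. The only such case was rno-miR-137 at +2, with 7.88% in run 2 of P0 replicate 1 against 6.12 to 6.35% in the other 3 P0 libraries.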

How the results depend on the processing

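The 4 member classes past the threshold (5 over all classes) became 1 (1) with run 1 alone and 5 (8) with run 2 alone, 6 (20) with DESeq2, 2 (5) with tags of 20 nt or longer, 31 (59) with TMM-normalized library sizes as offset, which tests levels rather than shares, 0 (0) for embryonic against late postnatal stages as groups, where edgeR found 85 classes at an unadjusted p under 0.05, and 0 (0) for tags that reached base 21. Leaving out 1 tissue sample gave 0 to 3 (0 to 4), with 0 without E10 or P28, where 29 and 42 classes had an unadjusted p under 0.05. With the run number as a replicate block over 18 libraries, which are not independent samples, 13 (46) passed, the 4 among them, and the number names a technical replicate, which pairs no tissue samples. The slope of rno-miR-672 at +1 reversed, to -0.035, only with TMM library sizes. The slopes of 16 of 24 other named classes changed direction under at least 1 alternative. For the median share before the mature end, r = 0.06 turned to -0.23 (run 1), -0.21 (run 2), -0.31 (20 nt or longer), -0.80 (pooled reads), -0.088 (without the 3 run 1 libraries) and -0.43 (reaching base 21), and ran from -0.078 to 0.19 with 1 tissue sample left out. Pooled reads gave r = -0.68 inside, -0.80 before and -0.79 for all shifts, all past the threshold, though by rank the first was not (rho = -0.56, exact permutation p adjusted 0.122). Of the mean shares of 31 named classes, 9 moved by over 1 SD with run 1 alone, 3 with run 2 alone, 7 of 30 with tags of 20 nt or longer, 6 of 28 with tags that reached base 21 and 1 without the 3 run 1 libraries. Among them Candidate 55 at +1 went from 1.0% to 2.12% in run 1, rno-miR-298 at +2 from 0.820% to 1.68% for tags that reached base 21, and rno-miR-296 at +1 from 0.275% to 0.604% in run 1 and 1.25% in run 2. The difference between runs turned to 0.0534 points inside and 0.154 points for all shifts with tags of 20 nt or longer. The alternatives without the 3 run 1 libraries, without the run 2 library of E10 and for tags reaching base 21 were chosen after seeing the data, and apart from the settings' own construction the cause of these changes was not tested. Shares below 0.1% rest on few reads, and no stage but P0 has a second tissue sample.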
